A study of Mus musculus with 696 samples.

Results

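In the mouse tail the epidermis between hair follicles is divided into scales and interscales. Scale cells mature without a granular layer and make hard keratins of the hair type, among them Krt36 and Krt84, whereas interscale cells pass through a granular layer and make the soft keratins Krt1 and Krt10. The cells described here are the 60 single cells, 8.62% of all, with the highest mean z-score of Krt36, Krt84, Mt4, Fcgbp and Dact2, each taken as log2(CPM + 1) and scaled over these and the 636 other cells, where CPM (counts scaled to the same total in every cell) is the level of a gene in a cell. These 5 genes chose the cells, so their values are given as a description only. The rule's own genes, as a description, were high together in only a few of them: Krt84 and Mt4 were both at 1000 CPM or more in 3 of the 60 cells and in 0 of the other 636, and 33 of the 60 had a count of neither Krt36 nor Krt84. The label of tail scale differentiated keratinocytes is therefore not used for the set, and they are called scale-score cells.

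The study asked whether the progeny of Lrig1 stem cells of the upper hair follicle keep a trace of a first wound. From its single cells and marker genes of another study, it reported that this progeny takes part in healing as interscale cells specifically. All cells came from adult female mice of mixed CBA and C57BL/6 background with the alleles Lrig1-EGFP-ires-CreERT2 and Rosa26-fl/STOP/fl-tdTomato. Hydroxytamoxifen was put on the tail skin of every mouse before wounding, so the sorted cells stem from cells in which Lrig1 drove the recombinase, and scale cells outside this lineage were not sampled. tdTomato+ cells were sorted from tissue that held both the wound bed and hair follicles farther away, and read with Smart-seq2. The 4 groups, of 2 plates each, were skin with no wound (named 0w), skin 1 week past a first full-thickness wound (named 1w pw1), skin 8 weeks past that wound (named 8w pw1) and skin 1 week past a later wound made where the first had healed (named 1w pw2). The methods describe independent experiments with several biological replicates but do not tie plates to them or to animals. The p-values therefore measure the spread between plates, which may be technical. Sample titles also carry a different letter for each time point (such as RepC at 0w and RepB at 8w pw1), with no meaning given. Whatever this letter stands for cannot be told apart from time. Healing stands for 1w pw1 and 1w pw2, and homeostasis for 0w and 8w pw1.

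Scale-score cells held a median of 101316 counts (6569 to 481777), against 134863 in the other cells (3551 to 1895080), and a median of 4475.5 against 4469.5 genes. Their median mitochondrial share was 14.2%, against 20.6%. The 644 cells that were deep enough were thinned to 20000 counts, and 52 cells, 2 of them scale-score cells, were left out. Of the 56 cells chosen after thinning, 41 were scale-score cells.

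The promoters of 3 of the rule's genes, both hard keratins and the metallothionein, are shown because the choice of the cells with the highest score rests on them. Krt36 (chr11:100102007-100105626, minus strand) encodes a type I hard keratin, Krt84 (chr15:101525026-101532820, minus strand) a type II hard keratin, and Mt4 (chr8:94137197-94139031, plus strand) a metallothionein of stratified epithelia, all in GRCm38 as GENCODE places them. The sequences are from RefSeq (GRCm38.p6), run from 250 bases before to 50 after the start that RefSeq gives on the coding strand (for Mt4 not the same base as above), and lie at chr11:100105577-100105876, chr15:101532771-101533070 and chr8:94136954-94137253. Capitals mark ATAA within 50 to 21 bases before the start and, in Mt4, the letters TGCACNC read on the reverse strand, a core of metal response elements.
Krt36: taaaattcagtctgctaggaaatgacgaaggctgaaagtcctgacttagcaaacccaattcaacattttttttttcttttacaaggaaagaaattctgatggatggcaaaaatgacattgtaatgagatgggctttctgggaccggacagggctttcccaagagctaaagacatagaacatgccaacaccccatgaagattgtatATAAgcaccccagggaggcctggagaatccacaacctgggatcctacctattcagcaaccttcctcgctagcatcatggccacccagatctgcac
Krt84: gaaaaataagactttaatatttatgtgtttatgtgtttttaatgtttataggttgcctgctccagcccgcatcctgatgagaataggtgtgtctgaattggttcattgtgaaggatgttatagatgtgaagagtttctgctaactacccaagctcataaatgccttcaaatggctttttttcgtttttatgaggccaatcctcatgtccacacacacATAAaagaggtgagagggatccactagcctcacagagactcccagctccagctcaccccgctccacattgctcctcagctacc
Mt4: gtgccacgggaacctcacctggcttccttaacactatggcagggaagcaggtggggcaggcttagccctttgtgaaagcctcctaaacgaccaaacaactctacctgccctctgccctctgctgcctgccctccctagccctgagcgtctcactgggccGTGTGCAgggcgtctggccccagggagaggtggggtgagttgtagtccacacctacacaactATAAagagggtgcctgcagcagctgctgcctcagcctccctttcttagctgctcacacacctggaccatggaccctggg

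The letters ATAA began 45 bases before the start in Krt36, 33 in Krt84, 29 in Mt4 and 27 in Fcgbp, and were not in this window of Dact2. This window held ATAA in 9.75% of 32851 promoters. The core TGCACNC or TGCGCNC, searched on both strands of the whole promoter, stood once in Mt4 (91 bases before the start), once in Dact2 (85 bases), 3 times in Mt1, 4 times in Mt2 and in 25.7% of all promoters. These matches describe letters and are not evidence of a site.

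The rule's genes were spread thinly over the scale-score cells. Krt36 had a count in 19 of the 60 cells (2.36% of the others), Krt84 in 14 (2.04%), Mt4 in 47 (29.4%), Fcgbp, which encodes a mucus-type protein that binds immunoglobulin, in 29 (12.3%) and Dact2, an antagonist of Wnt and TGF-beta signalling, in 33 (10.8%). No cell had all 5 genes; 4 cells had 4, 19 had 3, 32 had 2 and 5 had 1. Of the 142 detected values, 43 were of at most 3 counts. The median over the 60 cells was 0 CPM for Krt36, Krt84 and Fcgbp, 115 CPM for Mt4 and 7.88 CPM for Dact2. At the edge of the rule, the cells ranked 58 to 60 scored 0.670, 0.669 and 0.669 and those ranked 61 to 63 scored 0.667, 0.659 and 0.655. The cell ranked 60 entered on a single count of Krt36, while the cell ranked 61 had 176 counts of Mt4 and 1 of Fcgbp.

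**Figure D1:**
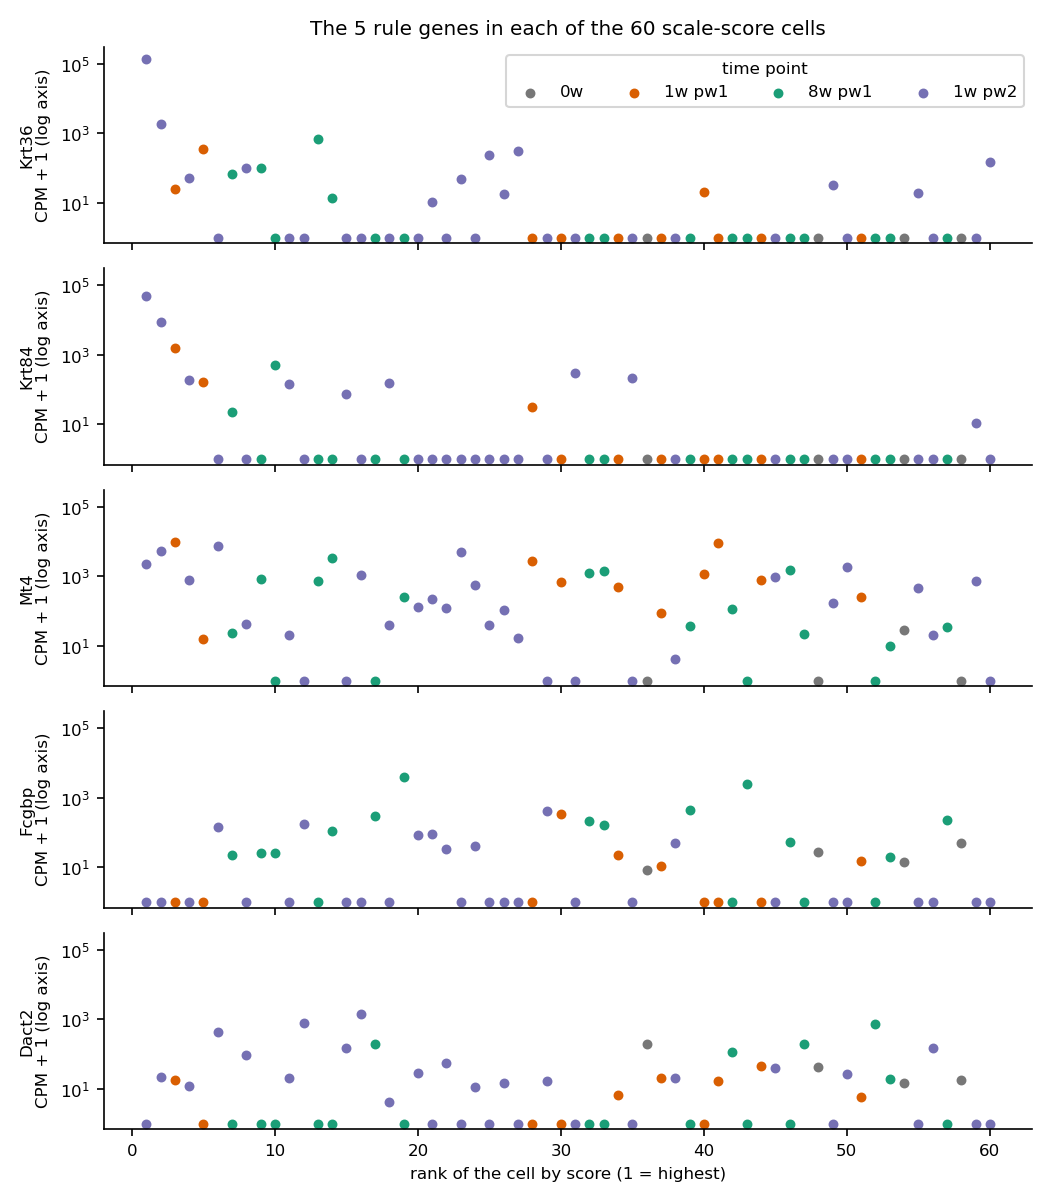
Each panel plots the level of 1 rule gene (CPM + 1, log axis) in the 60 scale-score cells in order of score, coloured by time point, with a value of 1 for no count. Krt36 reached 1000 CPM in 2 cells and Krt84 in 3, all among the first 3 ranks, while Mt4 at 1000 CPM or more recurs along the order (14 of 60 cells).

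The 3 cells with the highest score differed from the remaining 57. The highest cell, from 1w pw2 replicate 2, held 135155 CPM of Krt36, 47599 of Krt84 and 2314 of Mt4. The second, from the same plate, held 1799, 8911 and 5143 CPM of these genes, and the third, from 1w pw1 replicate 1, held 24.6, 1528 and 9380 CPM. The highest cell alone held 96.7% of all Krt36 and 79.4% of all Krt84, as sums of CPM over all cells. Without the 3 cells the mean of the others was 39.1 CPM for Krt36, 31.8 for Krt84, 772 for Mt4, 168 for Fcgbp and 85.4 for Dact2. Fcgbp was not detected in any of the 3 cells. The hair keratin regulator Hoxc13 had 106 CPM in the second and 73.9 CPM in the third cell and no count in the first. Of the basal keratins Krt5 had no count in any of them and Krt14 stood at 805, 2117 and 128 CPM. Of the suprabasal keratins Krt10 stood at 3686, 3006 and 32567 CPM and Krt1 at 0, 0 and 49.3 CPM.

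Genes high in all 3 cells were looked for after their values were seen, and are a description. Selenbp1, a selenium-binding protein, had 2070, 847 and 877 CPM, the lowest of which 2 of the 636 other cells reached (their mean was 11.4 CPM). Mettl7a3, a methyltransferase-like gene, had 2221, 673 and 1319 CPM, again reached by 2 of the others. Maf, a transcription factor of keratinocyte differentiation, had at least 378 CPM in each of the 3, reached by 30 other cells. A wider set of 17 cells, 16 of them scale-score cells, had Krt36 or Krt84 at 100 CPM or more. Of these, 47.1% had a count of Mettl7a3, 41.2% of Foxn1, a regulator of hair keratin genes, and 35.3% of Selenbp1, against 12.2%, 10.01% and 15.02% of all remaining cells. The 17 include the 3 cells from which Selenbp1 and Mettl7a3 were picked, and without those 3 the counts were 5, 4 and 3 of 14 cells for Mettl7a3, Foxn1 and Selenbp1. Of other hair genes, Hoxc13, Msx2 and the keratin Krt32 had a count in 2, 0 and 1 of these 14 cells, against 15.6%, 6.48% and 8.98% of all remaining cells. Fcgbp was seen in 11.8% of the 17 and 15.5% of the rest. Most of the 17 (12 cells) came from 1w pw2, with 3 from 8w pw1, 2 from 1w pw1 and 0 from 0w.

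The scale-score cells were mixed in their other markers. Each cell was described by the marker list, of 8, with its highest mean z-score, after the mean of each list was itself scaled over all cells. Genes of suprabasal keratins and early differentiation led in 19 of the 60 cells (17.3% of the other cells), basal genes in 11 (16.5%), bulge genes in 9 (13.2%), wound keratinocyte genes in 8 (8.65%), junctional zone and duct genes in 6 (21.5%), granular genes in 4 (4.72%), cell cycle genes in 3 (8.81%) and sebaceous gland genes in 0 (9.28%). The make-up varied between time points. Suprabasal genes led in 6 of 10 cells at 1w pw1 and 12 of 29 at 1w pw2, but in 1 of 17 at 8w pw1 and 0 of 4 at 0w. Basal genes led in 9 of 17 cells at 8w pw1, 1 of 4 at 0w, 0 of 10 at 1w pw1 and 1 of 29 at 1w pw2. Both 8w pw1 plates held such cells, 7 of 12 and 2 of 5. These shares by time were not tested.

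**Figure D2:**
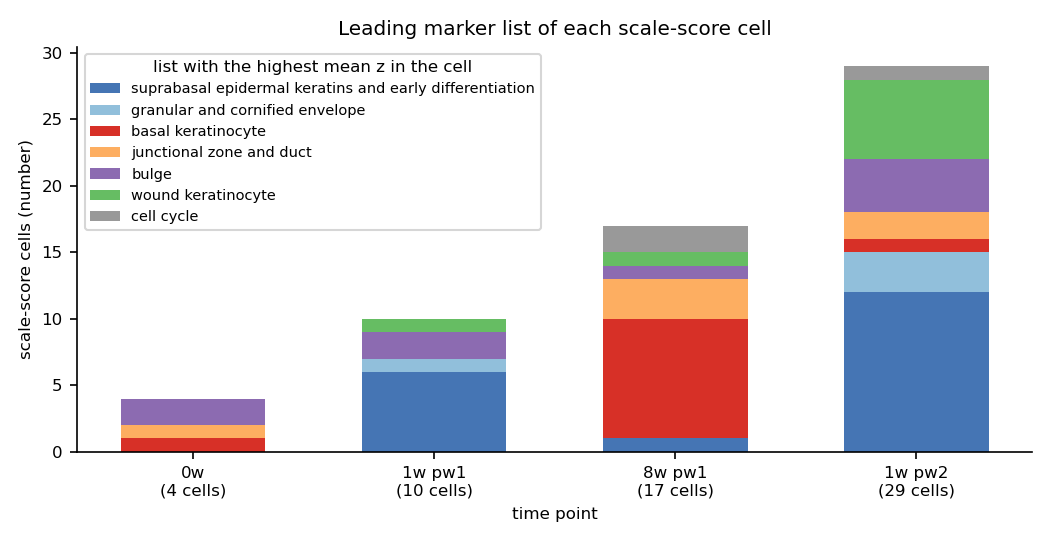
Bars give the number of scale-score cells at each time point, split by the marker list with the highest mean z-score in the cell, after the mean of each list was scaled over all cells. Basal genes lead in 9 of 17 cells of 8w pw1, and suprabasal genes in 6 of 10 cells of 1w pw1 and 12 of 29 of 1w pw2.

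Scale-score cells made up 2.27% and 2.20% of the cells of the 0w plates (2 of 88 and 2 of 91), 8.99% and 2.53% at 1w pw1 (8 of 89 and 2 of 79), 14.1% and 5.75% at 8w pw1 (12 of 85 and 5 of 87), and 22.1% and 10.99% at 1w pw2 (19 of 86 and 10 of 91). The lowest shares were those of both 0w plates, and the plates of 1w pw1, 8w pw1 and 1w pw2 overlapped with their neighbours. The means were 2.24% ± 0.0530, 5.76% ± 4.57, 9.93% ± 5.92 and 16.5% ± 7.85 (SD, n = 2 plates). The differences among time points did not pass the test that ignores replicate numbers (exact permutation test over plates of the F statistic, upper tail, p = 0.210, smallest possible 0.00952). Replicate 1 had the higher share at all 4 time points, and when time points were exchanged only within a replicate number, an alternative added after the data were seen, p was 0.0417, the smallest this exact permutation can give. Healing plates averaged 11.2% and homeostasis plates 6.08% (difference 5.07 percentage points, two-sided exact permutation p = 0.314, smallest possible 0.0286, n = 4 plates each). The first test gave p = 0.0190 when only the 40 cells with the highest score were taken or when Fcgbp was left out of the score. The number of sorted cells of a kind and their share of the tissue cannot be told apart here.

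**Figure D3:**
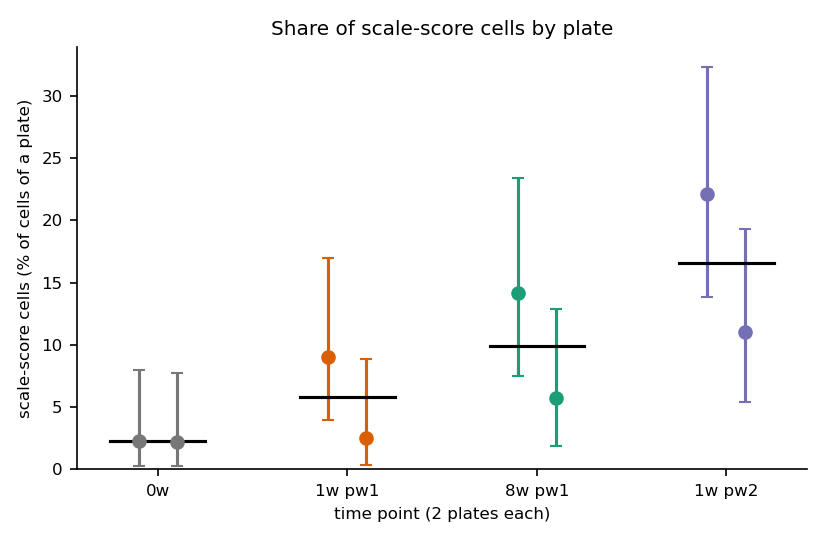
Points give the percentage of the cells of each plate that were scale-score cells, with exact (Clopper-Pearson) 95% intervals that cover counting error only, and lines the mean of the 2 plates. Both 0w plates lie near 2.2%, and the plates of the other time points range from 2.53% to 22.1%.

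Against the other cells of the same plates, scale-score cells had more genes at a lower than at a higher mean level. Levels were compared as log2(mean CPM + 5) within the 5 plates with at least 3 scale-score cells, over 10314 genes at 5 CPM or more, with no test, since the cells were chosen on these data. The median gene stood 0.22 lower in scale-score cells, 59 genes (0.572%) were more than 1 higher and 935 (9.07%) more than 1 lower. The 59 became 167 with a pseudocount of 1 CPM, 14 with 90 cells and 302 for the mean of log2(CPM + 1) over cells. By mean level, a gene above 0 is thus the less usual case (33.7% of genes). With the mean of log2(CPM + 1) over all cells pooled, some list medians turned positive. That of wound keratinocyte genes went from -0.39 to 0.48 and that of desmosome genes from -0.08 to 0.32, whereas that of sebaceous gland genes stayed negative (-0.32). Pooling changed more than the measure, since it took in all 8 plates and mixed the time points. Scale-score cells were 4 of 179 cells at 0w and 29 of 177 at 1w pw2. The part of this mix in the change of sign was not tested.

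Among genes outside the rule with a count in at least 30 of the 60 cells, Sox21, a transcription factor of hair shaft differentiation, stood highest. Its mean was 51.6 CPM in scale-score cells against 16.03 in the others at 1w pw1 replicate 1, 34.6 against 15.7 and 42.1 against 10.8 at 8w pw1, and 103 against 25.1 and 49.2 against 24.1 at 1w pw2. It was higher on all 5 plates (log2 difference 1.34 ± 0.41, SD) and had a count in 33 of the 60 cells and in 28.8% of the others. The filter asked for counts in scale-score cells only and the genes were ranked by this difference. These values are therefore a description. Maf followed (1.24 ± 1.14, higher on 5 of 5 plates, 44 cells), then Kxd1 (1.14 ± 0.67), Ces2g, a carboxylesterase (1.10 ± 0.98), the lipoprotein receptor Lrp1 (1.07 ± 0.65) and the deubiquitinase Mindy1 (1.05 ± 0.15). Tnfrsf19, a receptor of hair follicle progenitors, stood 0.93 ± 0.59 higher, and Kremen1, a receptor of the Wnt antagonists of the Dkk family, 0.86 ± 0.59. Notch1, the receptor that drives keratinocytes out of the basal layer, had a mean of 359 CPM against 120 and a count in 53 of the 60 cells (0.76 ± 0.75, 4 of 5 plates).

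Of 25 hard keratins and hair shaft genes 12 were in the table and 5 at the level, 3 of them above 0 (median 0.42, but -0.11 without the 3 cells with the highest score and -0.03 with 40 cells). Selenbp1 stood 1.93 ± 1.92 higher with counts in 14 cells only, and Hoxc13 was 0.30 ± 0.86 lower. Of the granular and cornified envelope genes 3 of 20 were above 0 (median -0.89; -0.03 for the mean of log2(CPM + 1) over cells within plates, 0.05 over all cells pooled). Tgm3, a transglutaminase of hair shaft and epidermis, stood 1.59 ± 0.99 higher on 5 of 5 plates, whereas Flg (filaggrin, -2.49 ± 2.99) had a count in 2 and Rptn (repetin, -2.63 ± 2.63) in 1 of the 60 cells, and in 4.25% and 2.83% of the others. The suprabasal list was even, with 10 of 20 genes above 0 (median 0.01; 0.85 for the mean of log2(CPM + 1) within plates, 1.33 pooled). Of 38 epidermal transcription factors at the level 15 were above 0 (median -0.21, 0.31 for the mean of log2(CPM + 1)), among them Grhl3, a regulator of barrier formation (1.02 ± 0.58, 5 of 5 plates).

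Sebaceous gland genes had lower mean levels. None of 12 stood above 0 (median -1.35, -0.19 for the mean of log2(CPM + 1)), and the lipid regulator Pparg and the elongase Elovl3 had no count in any of the 60 cells. Soat1, which esterifies cholesterol, had 2.93 CPM against 75.2 (-3.22 ± 0.71, lower on 5 of 5 plates), and Far2, a fatty acyl reductase, 1.75 against 49.3 (-2.78 ± 1.07, 5 of 5). Over all cells pooled, Scd1, a desaturase, had a mean of 158 against 939 CPM but a median of 79.1 against 38.8 CPM, so that mean and median differed in direction. Of 14 duct genes 2 were above 0 (median -1.01), with the protease inhibitor Cst6 at a mean of 5999 against 12893 CPM and the defensin Defb6 at 2501 against 5426 CPM. Over all cells pooled, both had the higher median in scale-score cells, 173 against 44.1 CPM and 297 against 2.86 CPM. They had counts in 83.3% against 68.9% and 58.3% against 50.6% of cells. By time point, however, the median of Cst6 was lower in scale-score cells at 1w pw1 (190 against 219 CPM). It was 6.44 against 6.02 CPM at 8w pw1, 587 against 283 at 1w pw2, and 740 against 2.01 at 0w, with 4 scale-score cells there. Immediate early genes were low too (2 of 15 above 0, median -0.72), with Egr1 at -2.31 ± 1.02, lower on 5 of 5 plates. The mean of log2(CPM + 1) kept the sign of these 3 list medians, with -0.69 for the duct list within plates and -0.14 over all cells pooled. For the basal list (median -0.44, 4 of 18 above 0) it gave 0.18 within plates and -0.06 over all cells pooled. Mt1 and Mt2, the metallothioneins that answer to zinc, stood at 141 against 157 CPM and 149 against 202 CPM, below the other cells on 4 of 5 plates each. Their medians over all cells pooled were nevertheless the higher ones (61.2 against 46.8 and 17.9 against 9.24 CPM). The pooled values of this paragraph mix time points, which held unequal shares of the scale-score cells.

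The 60 other cells with the highest mean z-score of the interscale genes Krt1, Krt10, Krt77, Krtdap and Sbsn were taken as a comparison set. They are called interscale comparison cells after these genes only, since they were also rich in duct genes. Against these interscale comparison cells, basal genes stood higher in scale-score cells, all 18 of 18 (median 1.93), where 60.2% of 10051 genes were above 0, 12.8% more than 1 above and 7.17% more than 1 below. Choosing the comparison cells by suprabasal genes favours low basal genes in them, and the part of this choice was not tested. Krt5 had a mean of 1279 against 3.96 CPM and Krt15 640 against 62.9 CPM. Krt5 was at 0 CPM in the scale-score cells of 1w pw1 replicate 1 and at 3929, 2781, 534 and 183 CPM in those of the 8w pw1 and 1w pw2 plates. Both keratins were higher on 4 of 5 plates, but lower than in the comparison cells at 1w pw1 replicate 1 (Krt5 0 against 4.55 CPM, Krt15 138 against 291 CPM). Of 32 cell cycle genes 29 were above 0 (median 1.01). The matrix protein Postn (429 against 41.5 CPM), the BMP and Wnt antagonist Sostdc1 (94.8 against 15.2 CPM) and the focal adhesion protein Tns4 (265 against 22.1 CPM) stood higher on 5 of 5 plates each. Lower were the duct genes (median -2.50), with Cst6 at 5999 against 53248 CPM and Defb6 at 2501 against 17170 CPM, and the granular genes (median -1.60). Mt4 had 736 CPM in the comparison cells and 1014 in the scale-score cells (log2 difference 0.07 ± 0.94), with a median of 0 against 115 CPM and counts in 25 against 47 of 60 cells.

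**Figure D4:**
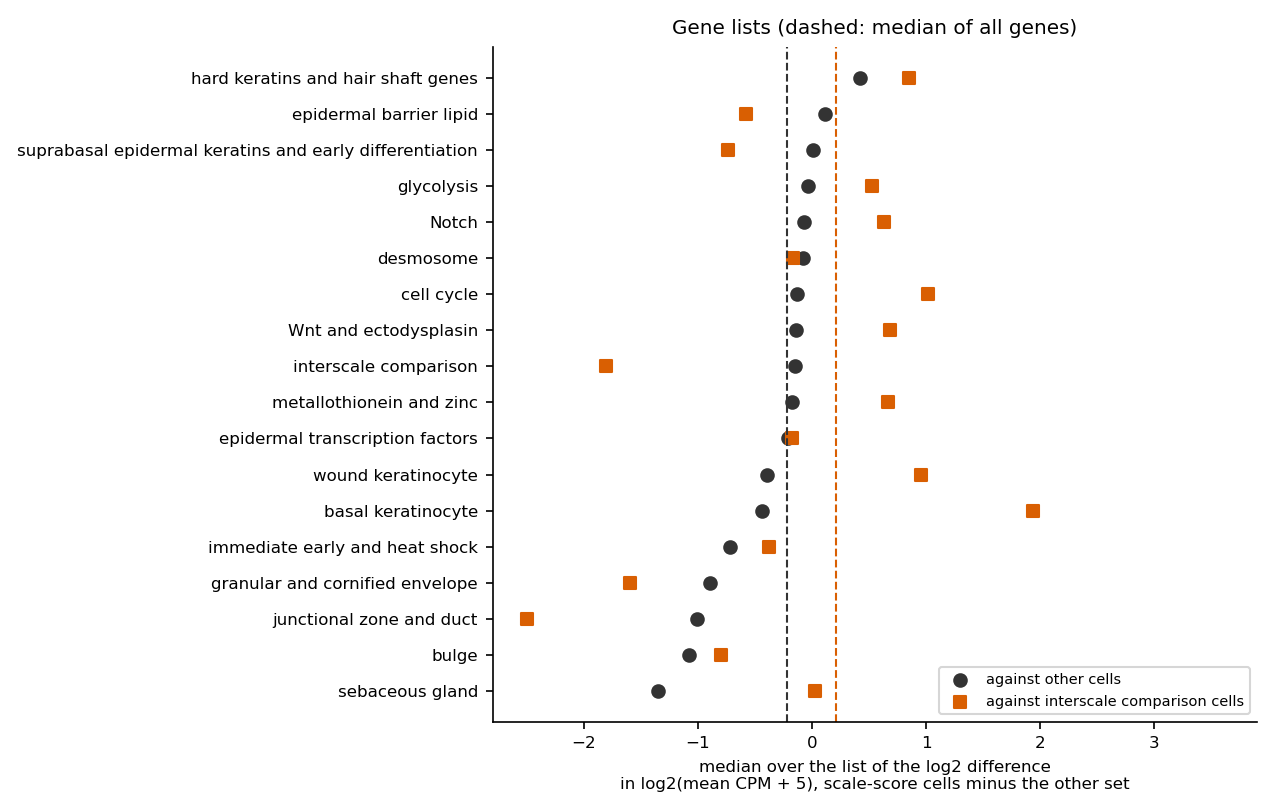
For each gene list the median log2 difference between scale-score cells and the other cells (circles) or the interscale comparison cells (squares) is plotted, in log2(mean CPM + 5) averaged over 5 plates, with dashed lines at the median of all genes (-0.22 and 0.21). Basal genes lie at 1.93 against the comparison cells and -0.44 against the other cells, and sebaceous genes lie lowest against the other cells.

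Of markers of cells outside the epithelium, those of immune cells and fibroblasts were near 0 in scale-score cells, whereas Pecam1 was high. Of 12 immune genes 7 were in the table, and their sum per plate was 0 to 4.75 CPM in scale-score cells against 1.55 to 157 in the others. The 6 of 10 fibroblast genes in the table summed to 0 to 9.50 against 1.02 to 25.7 CPM, with Col1a1 and Dcn at 0. The list for endothelial, melanocyte and Merkel cells (6 of 12 in the table) summed to 220 to 6414 against 240 to 4917 CPM, and without Pecam1 to 0 to 44.9 against 12.3 to 78.9 CPM. Pecam1 had a count in 59 of the 60 cells and in 98.7% of the others.

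The contrast of healing with homeostasis asks how the scale-score cells of healing skin differed. Their counts were summed per plate and tested with edgeR. Plates with fewer than 3 such cells were left out, which removed both 0w plates and 1w pw1 replicate 2, so the homeostasis arm is 8w pw1 alone. Of 10065 genes 34 (0.338%) were called, with an adjusted p under 0.05 (Benjamini-Hochberg) together with a change of over 2-fold. In healing 8 were higher (0.0795%) and 26 lower (0.258%). Without adjustment 773 genes had p under 0.05. The count was 20 with the replicate number as a block (7 higher, 13 lower). With every cell scaled equally it was 4 (3 higher, 1 lower). It was 0 without 1w pw1 replicate 1, 0 without 1w pw2 replicate 2 and 3 without 1w pw2 replicate 1. Leaving out 8w pw1 replicate 1 gave 137 and leaving out replicate 2 gave 54. In 22 of the 34 genes a single cell held over 50% of the counts of the higher arm. Krt84, a gene of the rule that chose the cells, is 1 of the 34 and had 91.1% of its healing counts in 1 cell. A summed level cannot tell more cells of a kind from more RNA per cell.

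Krt1, the first keratin of the suprabasal layers (chr15:101845426-101850794), had TMM-scaled sums of 19696 CPM at 1w pw1 replicate 1, of 7315 and 1865 at 1w pw2, and of 396 and 98.3 at 8w pw1. Both 8w pw1 plates lay below all healing plates (log2 fold change 5.26, SE 1.35, edgeR quasi-likelihood test, Benjamini-Hochberg adjusted p = 0.0341). It had a count in 26 of 37 healing and 9 of 17 homeostasis cells. Serpinb12, an epidermal protease inhibitor, had 703 CPM at 1w pw1 replicate 1, 53.9 and 56.9 at 1w pw2 and 1.07 and 0 at 8w pw1, with counts in 23 of 37 against 1 of 17 cells (edgeR adjusted p = 0.0176). Klk7, the kallikrein protease of shedding skin, had 137 CPM, then 102 and 1646 at 1w pw2, against 2.14 and 0 (edgeR adjusted p = 0.0095), with 72.8% of its healing counts in 1 cell. The other cells moved the same way in these 3 genes. Over both plates of 1w pw1, 1w pw2 and 8w pw1, 63.9%, 60.1% and 23.9% of them had a count of Krt1. For Serpinb12 these shares were 36.7%, 33.1% and 7.10%, and for Klk7 38.6%, 37.2% and 12.3%. Usp54, a deubiquitinase-like gene, had counts in 17 of 37 healing cells and none at 8w pw1, at least 56.2-fold higher than 3 counts over those 2 plates would be.

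Of the basal genes 3 of 18 were called lower. Krt5 (chr15:101707070-101712898) had 0 CPM at 1w pw1 replicate 1, 344 and 7.95 at 1w pw2 and 2388 and 1540 at 8w pw1, and no plates overlapped. It had a count in 9 of 37 healing and 14 of 17 homeostasis cells (edgeR adjusted p = 0.0026). Its fitted fold leans on the plate at 0, and the ratio of the arms' mean CPM was 16.8. Lamb3, a laminin chain of the basement membrane, had 0, 4.22 and 0 CPM in healing against 187 and 49.2 (edgeR adjusted p = 0.0267; 3 of 37 against 11 of 17 cells). The other cells moved the same way in both genes. Over both plates of 1w pw1, 1w pw2 and 8w pw1, 46.2%, 45.9% and 70.3% of them had a count of Krt5. For Lamb3 these shares were 19.0%, 16.9% and 36.1%. Itga3, an integrin that binds it, had 0, 1.20 and 0 against 179 and 18.4 CPM (edgeR adjusted p = 0.0197), with 88.2% of its 8w pw1 counts in 1 cell. Jag2, a Notch ligand, had no count in healing and counts in 8 of 17 homeostasis cells (at least 107-fold lower). Also lower were Kitl, the ligand of Kit (5 of 17 against 1 of 37 cells), the collagen Col4a5 (8 of 17 against 2 of 37 cells), and Frk, Zfp518a, Klhdc1 and Zfp935, for each of which a single cell gave at least 89.5% of the 8w pw1 counts. At 8w pw1 replicate 2 a single cell held 71.7% of the scale-score counts, and its part in these calls was not tested.

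By list, 3 of 18 basal genes were called lower (Krt5, Itga3 and Lamb3) and all 18 lay below 0 (median -3.57, all genes -0.05). Of 19 suprabasal genes Krt1 was called higher and 15 lay above 0 (median 1.504). Of 17 granular genes Klk7 was called higher and 15 lay above 0 (median 4.15). Of 32 cell cycle genes Cdk1 was called lower and 30 lay below 0 (median -5.21), but Cdk1 had counts in only 2 of 17 cells of 8w pw1, with 79.1% in 1 of them. Of 14 wound keratinocyte genes the keratin Krt6b was called higher (87.4% of its healing counts in 1 cell), of 16 barrier lipid genes the dehydrogenase Sdr9c7 was called lower (all of its 8w pw1 counts in 1 cell), and of 10 Notch pathway genes Jag2 was called lower. Of 36 transcription factors, 14 glycolysis genes and 9 desmosome genes 0 were called. Krt10 did not pass the test, nor did the basal keratins Krt14 and Krt15. The make-up of the cells differed beside these lists, since basal genes led in 9 of 17 cells at 8w pw1 and in 1 of the 37 cells of the healing plates tested; its part in the calls was not tested.

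To bring in 0w, all plates with at least 2 scale-score cells were fitted, an alternative added after the data were seen, which kept all 8 plates but only 4 cells at 0w. Healing against homeostasis then gave 27 of 7716 genes with edgeR (0.35%), 20 higher (0.259%) and 7 lower (0.0907%). Of the 27, 2 are the rule's genes Krt84 and Mt4, which chose the cells, and in 9 a single cell held over 50% of the counts of the higher arm. DESeq2 called 145 on the same plates, 80 higher and 65 lower. Of the 34 genes of the 5 plates, edgeR called 6 again (Krt1, Serpinb12, Klk7, Lamb3, Tns3 and the rule's gene Krt84) and 28 not, among them Krt5, Itga3, Jag2, Cdk1, Usp54 and Kitl. The 8 plates include those 5, so a gene called again is not an independent repeat. Calm4, a calmodulin-like protein of differentiating keratinocytes, had 20.7 and 45.3 CPM at 0w, 8047 and 11679 at 1w pw1, 196 and 1422 at 8w pw1 and 2360 and 2041 at 1w pw2 (log2 fold change 4.86, SE 0.81, edgeR quasi-likelihood test, Benjamini-Hochberg adjusted p = 0.0026). All healing plates lay above all homeostasis plates, and 37 of 39 against 17 of 21 cells had a count. Klk8, another kallikrein, had counts in 26 of 39 against 3 of 21 cells, the phospholipase Pla2g2f in 31 of 39 against 4 of 21, and Tprg, a target of p63, in 23 of 39 against 5 of 21, none of them with overlapping plates. Fabp5, a fatty acid carrier of differentiating keratinocytes, had counts in 38 of 39 against 12 of 21 cells and Dapl1, a gene of early differentiation, in 37 of 39 against 10 of 21, but the plates of the 2 arms overlapped in both genes. Of 18 suprabasal genes Krt1, Calm4 and Fabp5 were called and 18 lay above 0 (median 3.13, all genes 0.31), and of 10 granular genes Klk7, Klk8, Sprr1a and Sprr1b were called, with overlapping plates in all but Klk8 and, for Klk7 and Sprr1a, 72.8% and 78.2% of the healing counts in 1 cell. Of 14 wound keratinocyte genes Stfa3 and Serpinb3a were called higher and 13 lay above 0. Of 20 cell cycle genes 0 were called in this fit (median -1.80). Lower were Lamb3 (14 of 21 against 3 of 39 cells), Sema3d, a guidance ligand (10 of 21 against 3 of 39) and Prxl2a, an antioxidant protein (17 of 21 against 4 of 39).

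**Figure D5:**
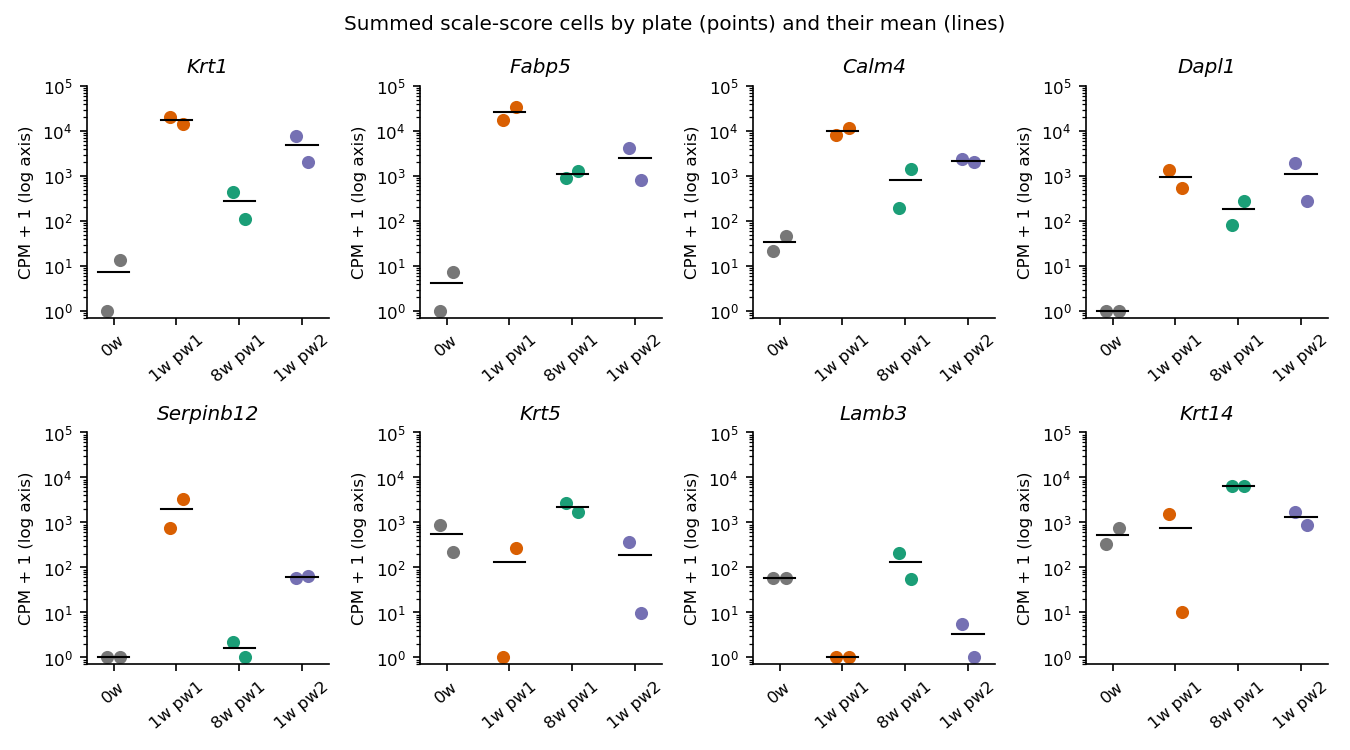
Points give TMM-scaled CPM + 1 (log axis) of the summed scale-score cells of each of the 8 plates for 8 genes, coloured by time point, and lines their mean, with 1 standing for no count. Krt1 and Calm4 lie higher in both healing time points than in both others, Lamb3 lies lower, and Krt5 overlaps, since 0w replicate 2 (220 CPM) lies below 1w pw2 replicate 1 (367 CPM).

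Against 0w, the same fit called 17 genes at 1w pw1 (0.22%), all higher, 12 at 8w pw1 (0.156%; 11 or 0.143% higher, 1 or 0.013% lower) and 13 at 1w pw2 (0.168%; 12 or 0.156% higher, 1 or 0.013% lower). These comparisons share the 4 cells of 0w, led by bulge genes in 2, basal genes in 1 and duct genes in 1. The counts include 1, 1 and 3 of the rule's own genes, and a single cell held over 50% of the counts of the higher arm in 7, 7 and 5 of the calls. With the 90 cells of highest score the counts were 1, 1 and 0. DESeq2 called 169 genes at 1w pw1, 68 of them lower, 128 at 8w pw1, 24 of them lower, and 104 at 1w pw2, 36 of them lower. Fabp5 stood at 0 and 6.47 CPM at 0w and at 17487 and 34204 at 1w pw1, 880 and 1303 at 8w pw1 and 4104 and 821 at 1w pw2. It was above 0w on all 6 plates, with edgeR adjusted p of 5.38e-05, 0.0114 and 0.0022. Among the other cells Fabp5 also had counts more often at 1w pw1 (96.2%), 8w pw1 (48.4%) and 1w pw2 (89.2%) than at 0w (36%). Cstdc5, a cystatin, had no count at 0w, whereas the plates of 1w pw1 held 4412 and 2925 CPM, those of 8w pw1 held 848 and 348 and those of 1w pw2 held 578 and 162, at least 521-fold, 93.1-fold and 64.7-fold above 3 counts over the 0w plates. Dsg1b, a desmosomal cadherin of suprabasal cells, was called higher at all 3 time points, and Maf, with no count in the 4 cells of 0w, at 8w pw1 (14 of 17 cells). Of the other cells, 32.6% had a count of Maf at 0w and 44.5% at 8w pw1. Aspn, a matrix proteoglycan, had 556 and 349 CPM at 0w in 2 of 4 cells and no count at 8w pw1 or 1w pw2.

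The last comparison asks whether healing changed scale-score cells by more or less than the other cells of the same plates. Of 10730 genes edgeR called 2 (0.0186%), both with a lower change in scale-score cells, while 553 had p under 0.05 before adjustment. Stfa1, a stefin protease inhibitor (chr16:36276951-36285373), stood in scale-score cells at 404 CPM at 1w pw1 replicate 1, 515 and 34.5 at 8w pw1 and 49.3 and 35.7 at 1w pw2. In the other cells it stood at 1581, at 33.6 and 4.55, and at 391 and 504 CPM, so that healing plates lay above 8w pw1 plates only there. The difference of the log2 changes was -6.61 (SE 0.88, edgeR quasi-likelihood test, Benjamini-Hochberg adjusted p = 0.0298). In scale-score cells 93.8% of its 8w pw1 counts came from 1 cell. Sprr2a2, a small proline-rich protein of the cornified envelope (chr3:92215920-92256724), stood at 1669, at 1557 and 124, and at 737 and 686 CPM in scale-score cells and at 1906, at 62.5 and 8.83, and at 2120 and 3925 CPM in the others (difference -5.89, SE 0.82, edgeR adjusted p = 0.0298), and 95.99% of its 8w pw1 counts in scale-score cells came from 1 cell. Stfa1 and Sprr2a2 belong to families of near-identical copies whose reads may be split between members. Both calls were lost with every cell scaled equally (edgeR adjusted p = 0.997 and 0.165), on removing either plate of 8w pw1 (0.141 and 0.154 for replicate 1, 0.297 and 0.367 for replicate 2), with 90 cells (0.753 each) and in the fit of all 8 plates (0.0628 and 0.135). The next genes, Cstdc5, Il1f9 and Tslp, did not pass the test (edgeR adjusted p = 0.12, 0.17 and 0.17). Krt1 (1.61, adjusted p = 0.95) and Krt5 (-6.37, adjusted p = 0.44) did not pass edgeR's test of this difference either.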

How the data were processed

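Smart-seq2 libraries of 696 sorted cells on 8 plates were analysed. The authors deposited estimated counts per gene and cell (expected counts, not normalised), made with Salmon 0.13.1 on mouse transcripts of GRCm38. Of these values 96.6% were whole numbers, and they were rounded after summing. How transcripts were summed to genes is not given in the sources used here. Every cell met the filter of the study (1000 genes or more, mitochondrial counts of 50% or less). Cells had been sorted singly into wells, and no doublet caller was run. No molecular identifiers were used, so intervals and lower bounds cover counting error only, and a fold against 0 was computed against 3 counts over the group. The members and gene lists were chosen with earlier results of these data known.

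Counts of scale-score cells were summed per plate, which favours deep cells, and tested with edgeR 4.0.16 (TMM, default filter on low counts, quasi-likelihood test, Benjamini-Hochberg adjustment) in R 4.3.3 with the time point as the only term. The fit had 2 residual degrees of freedom and a biological coefficient of variation of 0.919. The study tested single cells instead. DESeq2 1.42.0, other filters, scalings, cell numbers, scores and left-out plates were tried. Replicates with the same number deviated together in all 6 pairs of time points (correlations 0.218 to 0.325 over 10193 genes), so the numbers were taken to pair the plates, although the labels do not say what they share. The p-values printed for genes in healing against homeostasis and against 0w come from fits without the replicate number. The replicate block was run as an alternative only.

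Named genes outside the lists were, against other cells, the 30 highest and 15 lowest log2 differences at 50 CPM or more (highest: counts in at least 30 of the 60 cells), against comparison cells the 15 highest and 10 lowest, and in tests the 10 highest and 10 lowest called genes with non-overlapping plates and an average log2 CPM of at least 5, without predicted genes, or the 5 smallest p where under 5 were called. Not all of them are printed. Genes described from the 3 highest cells, from all plates with at least 2 scale-score cells, and Jag2, Cdk1 and Fabp5 were chosen after their values were seen. Python 3.11.15 with scipy 1.17.1 gave the exact tests.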

Additional observations from a re-analysis of the deposited data

Results flagged for a closer look

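Stfa1 and Sprr2a2 were called for a different change with healing in scale-score cells and in the other cells of the same plates (edgeR quasi-likelihood interaction, -6.61 and -5.89 on the log2 scale, Benjamini-Hochberg adjusted p = 0.0298 each). A single cell held 93.8% (Stfa1) and 95.99% (Sprr2a2) of their 8w pw1 counts in scale-score cells. Its part in the sign under the alternatives was not tested. Both differences were negative under all 14 alternatives of each gene, and the adjusted p ranged from 8.08e-10 (DESeq2) to 0.997 (every cell scaled equally) for Stfa1 and from 1.45e-10 (no filter on low counts) to 0.753 (90 cells) for Sprr2a2.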

How the results depend on the processing

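Counts of called genes depended on the processing. Healing against homeostasis (34 genes) gave 96 with DESeq2 (24 higher, 72 lower), 22 with no filter on low counts, 4 with every cell scaled equally, 20 with the replicate block, 72 with 40 cells and 11 with 90 cells, and 145 with DESeq2 on all plates with at least 2 scale-score cells. Leaving out a plate gave 0 to 137. It gave 36 without the 3 cells with the highest score. The response against that of other cells (2 genes) gave 124 with DESeq2, 81 with no filter, 0 with equal scaling, 9 with 40 cells, 0 with 90 cells, 0 on all plates with at least 2 scale-score cells (31 with DESeq2), and 0 to 17 without a plate. Unadjusted p-values below 0.05 numbered 435 under equal scaling, 487 with 90 cells and 460 on all plates. Without 1w pw1 replicate 1 and without 1w pw2 replicate 2, healing had 519 and 492 such genes. Of the comparisons with 0w, that of 1w pw1 (17) gave 1 with 90 cells and 169 with DESeq2, that of 8w pw1 (12) 1 and 128, and that of 1w pw2 (13) 0 and 104. The last had 669 genes at an unadjusted p below 0.05 with 90 cells, and 23 calls with the replicate block, which moved neither of the other comparisons with 0w by over 1.5 times. The spread of shares among time points (14.3 percentage points between the highest and lowest mean) was 11.97 with 40 cells and 19.0 without Fcgbp in the score, both past the threshold, and with the replicate block its 14.3 had an exact permutation p of 0.0417. Genes more than 1 higher than in other cells (59) numbered 167 with a pseudocount of 1 CPM, 14 with 90 cells and 302 as the mean of log2(CPM + 1), and against comparison cells (1284) 2558 with a pseudocount of 1 CPM. The called genes named by the rule kept their direction in all settings run, but in healing 100 of 229 of their alternative values were no longer past the threshold. Krt10, not called in healing, went from -0.25 to 2.70 on all plates with at least 2 scale-score cells. DESeq2's size factors moved the median gene from -0.05 to -0.15 in healing. The causes of these shifts were not tested. Of 142 detected values of the rule's genes 43 were of at most 3 counts, but only 6 of these were of Krt36 and 1 of Krt84. How far depth limits the absence of these keratins in a cell was not tested.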
